A study of Mus musculus with 8 samples.

Results

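Wwox, Fhit, Macrod2 and Immp2l are very long genes whose human counterparts span common fragile sites, and the CpG calls inside their gene spans were followed here through the return of 5-hydroxymethylcytosine (5hmC) to mouse embryonic stem cells. The 4 genes were taken by name, each from its start to its end on GRCm38.p6, and together they held 2607 of the 1849087 CpG calls of the 8 libraries. The cells had lost all 3 TET enzymes (TET1 to TET3), which turn 5-methylcytosine into 5hmC, and had received by PiggyBac transposition a doxycycline-inducible catalytic domain of mouse TET3, linked in its transcript to mCherry. All cells were kept in 50 µg/ml ascorbate. The 0 h group had no doxycycline (3 libraries, A, B and C), and 1 µM doxycycline was given for 6 h (2 libraries, A and B) or 12 h (3 libraries, A, B and C). The domain is an isolated part of TET3 made from a transgene, in cells without any TET of their own. The labels do not say whether libraries of a group came from separate cultures, so errors over libraries may be technical only. 5hmC was read with APOBEC-coupled epigenetic sequencing (ACE-seq), in which 5hmC is protected by glucosylation and other cytosines are deaminated. A call is 1 CpG cytosine on 1 read, and a level is the percentage of calls that stayed undeaminated.

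Common fragile sites are chromosome regions that break or form gaps when DNA replication is slowed. Many lie within very long genes with large introns, where few replication origins fire and transcription can last for much of a cell cycle. 5hmC is made by TET enzymes on DNA that is already methylated, and in stem cells and neurons it is often found in gene bodies. Most of the span of a very long gene is intron, far from any promoter.

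Wwox encodes an oxidoreductase with WW domains and lies over the mouse equivalent of the fragile site FRA16D. It covers chr8:114439635-115352712, a span of 913 kb. Fhit encodes a diadenosine triphosphate hydrolase of the histidine triad family and covers chr14:9550092-11162061 on the minus strand (1612 kb), the mouse equivalent of FRA3B. Macrod2 encodes a hydrolase that removes mono-ADP-ribose from proteins and covers chr2:140395303-142392966 on the plus strand (1998 kb). Immp2l encodes a catalytic subunit of the inner mitochondrial membrane peptidase and covers chr12:41024061-41955588 on the plus strand (932 kb). The gene table used has no exons, so a call was not assigned to an intron or an exon, and it gives no strand for Wwox.

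The genes were covered thinly, and Wwox was covered more densely than the other 3. Wwox held 1163 calls on 479 reads, or 1.27 calls per kb. Fhit held 513 calls on 337 reads (0.318 calls per kb), Macrod2 595 calls on 342 reads (0.298) and Immp2l 336 calls on 196 reads (0.361). Wwox had more calls per kb than 96.5% of 229 other genes with spans of at least 500 kb (those with calls in 7 or more libraries), and the other 3 members had more than 35.4 to 45.0% of them. Reads in Wwox also carried more CpG calls (2.43 per read) than reads in Fhit (1.52), Macrod2 (1.74) and Immp2l (1.71), against 2.22 over all reads. Together the 4 genes took a similar share of each library: 13.0 to 15.2 of every 10000 calls at 0 h, 12.3 to 16.4 at 6 h and 12.5 to 15.8 at 12 h. Single genes varied more. Macrod2 took 3.56 to 4.76 at 0 h and 2.28 to 3.13 at 12 h, and Immp2l took 0.575 to 2.84 within 0 h. The longest stretch without a call ran from 22.4 kb in Wwox to 32.3 kb in Macrod2. None of the calls lay in a 10 kb window with 200 or more calls, where repeats present in many copies could collect reads.

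Promoter windows (250 bases before to 50 after a start) show how CpGs are placed at the starts of 3 of the genes, since the few reads there bear on the levels at the gene ends. They were taken from RefSeq promoter sequences on GRCm38.p6, and 3 of the 4 genes had an entry. CpGs are in capitals. The strand shown is that of the gene, at chr12:41023840-41024139 (plus strand) for Immp2l, chr2:140395180-140395479 (plus strand) for Macrod2 and chr14:11161986-11162285 (minus strand) for Fhit.
Immp2l: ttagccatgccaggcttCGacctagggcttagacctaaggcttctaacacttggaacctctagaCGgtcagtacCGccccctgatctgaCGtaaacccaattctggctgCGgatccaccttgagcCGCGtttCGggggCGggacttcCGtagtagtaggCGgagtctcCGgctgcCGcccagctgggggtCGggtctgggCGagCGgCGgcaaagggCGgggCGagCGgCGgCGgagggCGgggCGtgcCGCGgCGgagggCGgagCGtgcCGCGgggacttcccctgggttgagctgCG
Macrod2: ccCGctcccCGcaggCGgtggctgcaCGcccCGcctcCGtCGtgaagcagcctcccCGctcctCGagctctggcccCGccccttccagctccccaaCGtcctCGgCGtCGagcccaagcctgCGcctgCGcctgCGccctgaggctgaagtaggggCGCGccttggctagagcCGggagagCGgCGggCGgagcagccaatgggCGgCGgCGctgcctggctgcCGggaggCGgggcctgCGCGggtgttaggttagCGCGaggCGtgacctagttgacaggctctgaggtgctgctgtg
Fhit: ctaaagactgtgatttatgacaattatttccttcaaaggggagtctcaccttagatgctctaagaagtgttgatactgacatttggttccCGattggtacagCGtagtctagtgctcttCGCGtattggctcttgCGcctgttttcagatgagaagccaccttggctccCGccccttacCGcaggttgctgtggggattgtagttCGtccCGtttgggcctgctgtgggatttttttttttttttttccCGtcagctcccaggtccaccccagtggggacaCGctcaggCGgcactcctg
The Immp2l window holds 32 CpGs, the Macrod2 window 33 and the Fhit window 12, where the median of 32851 promoter windows is 7. At least 1 CpG was present in 94.6% of all windows. A second Fhit start, inside the gene, has 7. Only the Immp2l window was read, with 12 calls on 2 reads, 9 at 6 h and 3 at 12 h. None of the 12 was undeaminated.

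Across the 8 libraries the level of all calls was 0.899, 1.23 and 1.26% at 0 h, 6.57 and 6.27% at 6 h, and 22.3, 23.3 and 26.8% at 12 h, from 75023 to 485941 calls per library. Library 6 h A was the shallowest, and in it each of the 4 genes lay above the library's level. Levels of whole genes at 6 h are therefore given for both libraries separately, except beside their flanks, where calls are summed.

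Wwox went from a few undeaminated calls to about 1 in 4. At 0 h it had 2 of 103 calls undeaminated (1.94%) in library A, 1 of 53 (1.89%) in B and 2 of 56 (3.57%) in C. At 6 h it had 6 of 40 (15%) in A and 13 of 169 (7.69%) in B. At 12 h it had 73 of 330 (22.1%) in A, 69 of 300 (23.0%) in B and 38 of 112 (33.9%) in C. The 3 times did not overlap. Library 12 h C was the highest for Wwox, as it was for all calls, and its 95% Wilson interval of 25.8 to 43.1% reached below the library's 26.8%.

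Fhit started at 0 of 39 calls in library 0 h A (allowing up to 7.69%), 1 of 24 (4.17%) in B and 1 of 30 (3.33%) in C. At 6 h the level was 4 of 34 (11.8%) in A and 4 of 62 (6.45%) in B. At 12 h it was 32 of 146 (21.9%) in A, 36 of 138 (26.1%) in B and 9 of 40 (22.5%) in C. The library levels of the times again did not overlap, and here library B was the highest at 12 h. Wilson intervals did overlap, as in 0 h B (up to 20.2%) and 12 h C (from 12.3%).

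Macrod2 had no undeaminated call before induction: 0 of 75, 0 of 31 and 0 of 40 calls in libraries A, B and C. Over the 146 calls this allows a level of up to 2.05% (3 counts), above the 1.13% mean of the libraries, so a lower starting level was not detectable at this depth. The 6 h libraries differed widely, with 6 of 32 (18.8%) in A and 1 of 82 (1.22%) in B. At 12 h the level was 34 of 139 (24.5%) in A, 26 of 152 (17.1%) in B and 10 of 44 (22.7%) in C. The 12 h libraries did not overlap those at 0 h, but library 6 h A (18.8%) lay above library 12 h B (17.1%).

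Immp2l had the fewest calls and also showed no undeaminated call at 0 h, with 0 of 19, 0 of 5 and 0 of 29. The 53 calls allow a level of up to 5.66%. At 6 h it had 2 of 17 (11.8%) in A and 4 of 50 (8.0%) in B. At 12 h the 3 libraries lay close together, at 24 of 104 (23.1%), 15 of 68 (22.1%) and 10 of 44 (22.7%).

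Set in order by their means at 12 h, the genes were Wwox at 26.3% ± 6.58 (SD, n = 3), Fhit at 23.5% ± 2.26, Immp2l at 22.6% ± 0.517 and Macrod2 at 21.4% ± 3.85. No gene differed from its neighbour in that order by more than the larger of their SDs. Pooled, the 4 genes stood at 1.52% ± 0.586 (SD, n = 3) at 0 h and 24.3% ± 3.18 at 12 h, against 1.13% ± 0.199 and 24.1% ± 2.36 for all calls. The pooled level of each 12 h library was 22.7, 22.2 and 27.9%, which differed from that library's own level by 0.36, -1.13 and 1.11 percentage points. The mean difference was 0.115 ± 1.14 points (SD, n = 3).

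**Figure D1:**
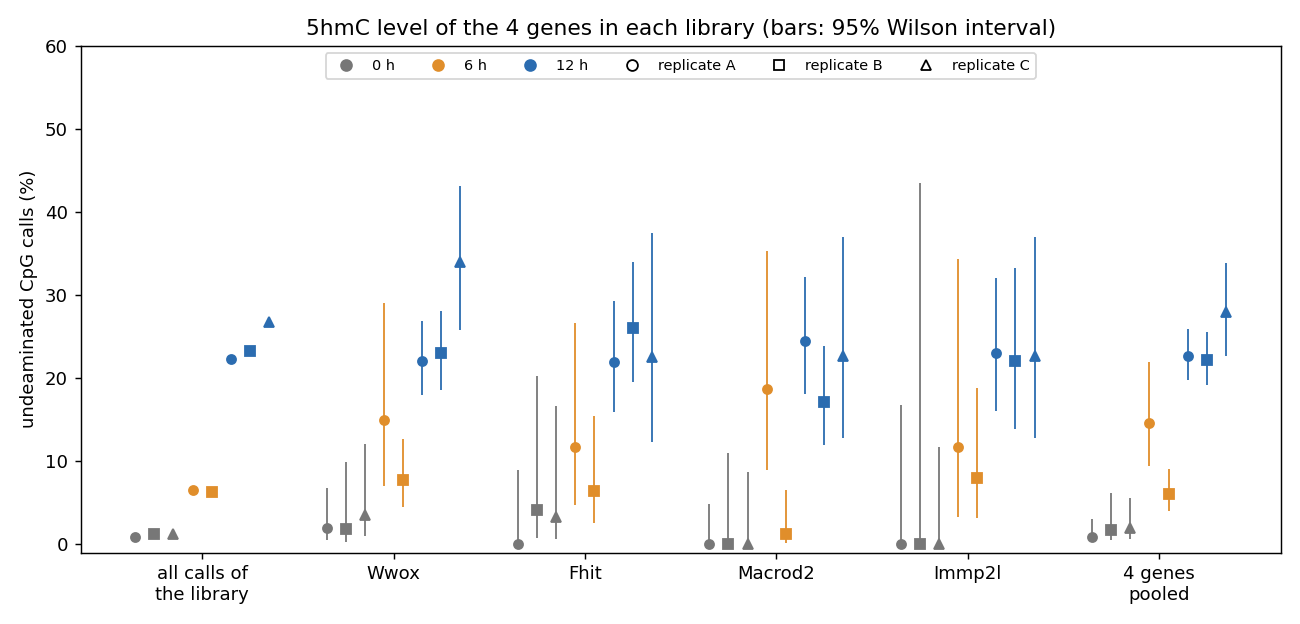
Undeaminated CpG calls in percent (y axis) for all calls, each gene and the 4 genes pooled (x axis), with 1 point per library, colour for time, shape for replicate letter and bars for the 95% Wilson interval. At 12 h every gene lies around the library levels of 22.3 to 26.8%, and at 6 h library A lies above its own level of 6.57% in each of the 4 genes.

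At 6 h the pooled level was 14.6% in library A (18 of 123 calls, interval 9.46 to 21.9%) and 6.06% in library B (22 of 363), against library levels of 6.57 and 6.27%. The higher value in A was shared by all 4 genes, from 11.8% in Fhit and Immp2l to 18.8% in Macrod2. The 18 calls were spread over 16 of 65 reads, with at most 3 on 1 read. Library B, with more calls, lay near its own level in Fhit (6.45%) and below it in Macrod2 (1.22%). It lay above that level in Wwox (7.69%) and Immp2l (8.0%). The part of depth in this difference between the 2 libraries was not tested.

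The gain between times was tested with limma over the 346 genes that had 10 or more calls in each of the 8 libraries, among them Wwox, Fhit and Macrod2. From 0 h to 12 h, Wwox gained 21.8 ± 2.12 percentage points (estimate ± SE, weighted by calls, adjusted p = 4.6e-06), Fhit 21.9 ± 2.63 (adjusted p = 1.66e-05) and Macrod2 20.9 ± 3.39 (adjusted p = 0.000126). The 3 of 3 members that rose stand beside 98.8% of all genes tested. From 6 h to 12 h 3 of 3 members rose, by 15.1, 15.5 and 14.9 points, where 91.6% of the tested genes did. From 0 h to 6 h 0 of 3 passed limma's adjusted threshold of 0.05, where 6.36% of the tested genes did. An unadjusted p under 0.05 was found in 2 of 3 (Wwox and Fhit) and in 104 of all 346 genes. The 6 h estimates were 6.75 ± 2.27 points in Wwox (adjusted p = 0.0801), 6.42 ± 2.77 in Fhit (adjusted p = 0.145) and 5.99 ± 3.36 in Macrod2 (adjusted p = 0.233). Because the rise of a library enters every one of its genes, these gains are not independent of each other and their p-values may be too small.

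Immp2l had 5 calls in library 0 h B and fell below the minimum. With a minimum of 5 calls, over 1027 genes, its gain from 0 h to 12 h was 22.7 ± 1.97 points (limma, adjusted p = 3.51e-05), of the same size as in the other 3 genes. At that minimum 966 of the 1027 genes passed.

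The comparison that sets a gene apart from its library is the deviation, the level of the gene minus that of the library, tested as the change of this difference from 0 h to 12 h. It was -0.476 points in Wwox (95% interval -4.48 to 3.53), -0.273 in Fhit (-5.91 to 5.36) and -1.34 in Macrod2 (-8.90 to 6.22). By limma 0 of 3 members passed, where 2.02% of all tested genes did. At an unadjusted p under 0.05 it was 0 of 3, against 49 of all 346 genes. By a quasi-binomial test of the calls it was also 0 of 3, where that test called 2 of the 346 genes. The limma adjusted p-values were 0.944 in Wwox, 0.969 in Fhit and 0.909 in Macrod2. The intervals leave room for departures of several points, so the genes are not shown to rise exactly as their libraries. For Immp2l, with the lower minimum, the deviation was 0.324 (-4.67 to 5.32). By size of deviation, 37.3% of the tested genes lay below Wwox, 38.4% below Fhit and 29.8% below Macrod2. The median over all 346 genes was a deviation of 0.788 points.

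**Figure D2:**
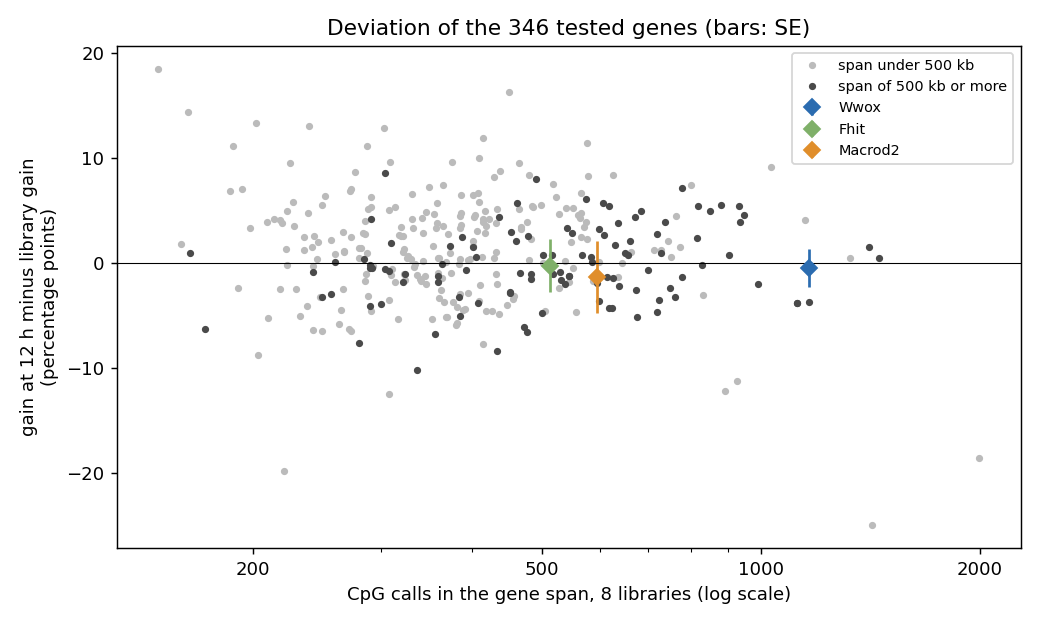
Change of the deviation from 0 h to 12 h in percentage points (y axis) against the CpG calls of the gene in all libraries (x axis, log scale), with 1 point per tested gene and the members as diamonds with SE. Wwox, Fhit and Macrod2 lie within 1.34 points of 0, among the other genes with spans of 500 kb or more (dark points).

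The level of a read in these libraries depends on how many CpGs it carries, and the 4 genes differ in this from the whole. Single-CpG reads held 42.1% of the calls in Fhit, 35.1% in Immp2l, 33.1% in Macrod2 and 15.3% in Wwox, against 20.8% of all calls. Reads with 6 or more CpGs, which hold 19.0% of all calls, gave 11% of the calls in Wwox, 8.74% in Macrod2, 6.24% in Fhit and 4.76% in Immp2l. Wwox stands out for reads with 4 to 5 CpGs, which held 34.3% of its calls against 18.7% of all calls and 5.85% in Fhit.

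Weighting each library's class levels by the members' own reads gave an expected level of 25.7% at 12 h for the pooled genes. They lay below the expected level by 0.94, 2.68 and 0.68 points in libraries A, B and C, a mean of -1.44 ± 1.09 points (SD, n = 3). With 1 call drawn at random per read, in 1 draw, the mean was 0.134, so the sign was not stable. What moved it was not tested. For single genes, the change of this standardised deviation from 0 h to 12 h was -1.89 in Wwox (95% interval -5.79 to 2.01), -1.72 in Fhit (-7.24 to 3.79) and -2.88 in Macrod2 (-10.6 to 4.81). None of the 3 passed by limma or at an unadjusted p under 0.05. Limma called 0.867% of the 346 genes (2 higher and 1 lower, or 1 and 1 with median centring). The quasi-binomial test called 0 of the 346 genes, so its 0 of 3 members says nothing about them. At an unadjusted p under 0.05, limma gave 42 of the 346.

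Within classes the pooled genes lay on both sides of the library at 12 h. Reads with 1 CpG gave 22.3% ± 3.28 (SD, n = 3) against 25% in the libraries, reads with 2 gave 26.9% ± 7.79 against 26.0%, and reads with 3 gave 29.5% ± 5.11 against 26.8%. Reads with 4 to 5 CpGs gave 20.4% ± 3.64 against 26.3%, and this was the class that lay below in 3 of 3 libraries, by 4.39 to 8.06 points. Reads with 6 to 7 gave 22.8% ± 5.28 against 24.4%. Reads with 8 to 10 CpGs did not occur in the 4 genes at 12 h, and those with 11 or more gave 0 of 16 calls, which allows up to 18.8%.

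Most of the calls in the class of 4 to 5 CpGs came from Wwox, which had 43 of 245 undeaminated there at 12 h (17.6%). By library this was 16 of 111 (14.4%), 17 of 97 (17.5%) and 10 of 37 (27.0%), against 24.8, 25.4 and 28.8% for all reads of that class. On reads with 3 CpGs, Wwox stood at 22 of 60 (36.7%), 24 of 66 (36.4%) and 8 of 24 (33.3%), above the 24.9, 25.8 and 29.6% of the libraries. So the neighbouring classes of the same gene departed in opposite directions, each in 3 of 3 libraries. These 2 classes were singled out after their values were seen, they rest on 50 reads with 3 CpGs and 56 with 4 to 5, and they were not tested. At 12 h, 62.0% of the Wwox reads with 3 CpGs held an undeaminated call against 51.5% of all such reads, and 46.4% of those with 4 to 5 against 59.1%. In the other 3 genes, the reads with 4 to 5 CpGs were few, with 22 of 93 calls undeaminated (23.7%), and reads with 3 CpGs gave 29 of 144 (20.1%).

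**Figure D3:**
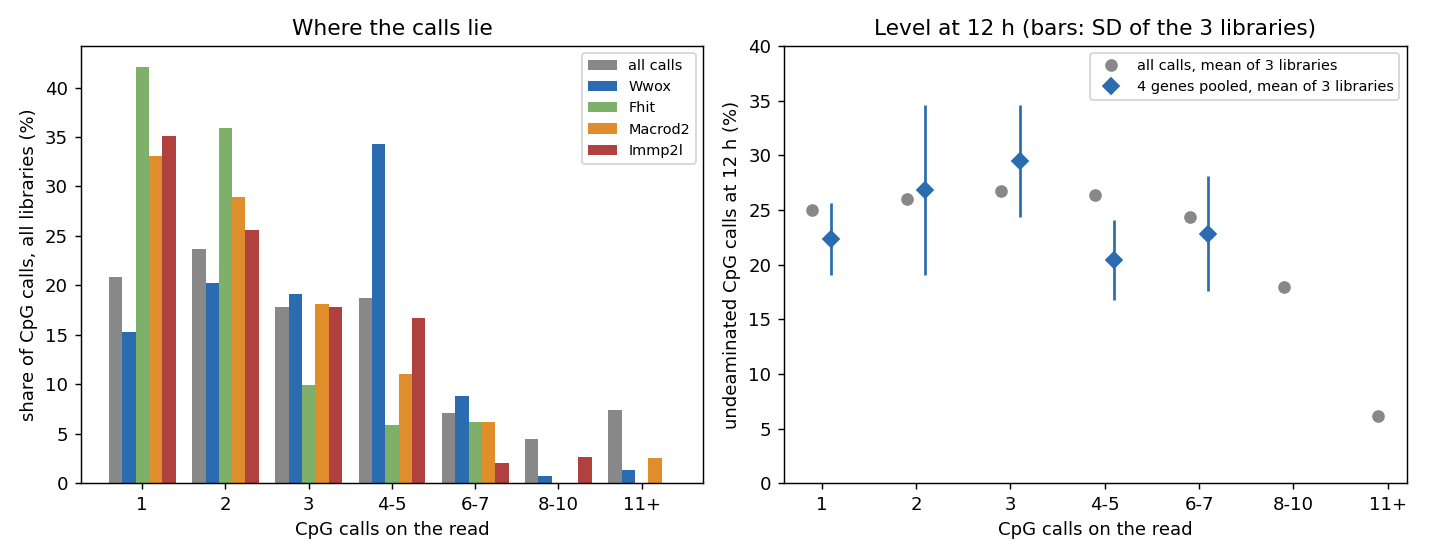
Left, share of CpG calls in percent (y axis) by the number of CpG calls on the read (x axis) for all calls and for each gene. Right, level at 12 h in percent for all calls (grey) and for the 4 genes pooled (blue), as means of 3 libraries with the SD of the pooled genes, for classes with at least 100 calls. In the class of 4 to 5 CpGs, which holds 34.3% of the Wwox calls, the pooled genes stand at 20.4% against 26.3%.

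On reads with 2 or more CpGs, neighbouring cytosines can be seen together. At 12 h 182 of 405 such reads in the 4 genes (44.9%) held an undeaminated call and 65 (16%, Wilson interval 12.8 to 19.9%) held 2 or more. The same shares over all reads of the 3 libraries were 47.5 and 19.0%, the latter within the interval. Wwox had 41 of 193 reads with 2 or more undeaminated calls (21.2%), Fhit 12 of 81 (14.8%), Immp2l 5 of 49 (10.2%) and Macrod2 7 of 82 (8.54%). The interval of Macrod2 (4.20 to 16.6%) lay below the 19.0% of all reads, and those of Wwox, Fhit and Immp2l included it. These shares were not adjusted for CpG calls per read (2.43 in Wwox, 1.52 to 1.74 in the other 3 genes), and their differences were not tested. At 0 h none of 121 such reads had 2 or more.

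Each gene span was cut into 4 segments of equal length, counted from the transcription start where a strand is given. Wwox has no strand here and was counted from the lower coordinate. Segment 1 is thus the 5′ end of Fhit, Macrod2 and Immp2l. Pooled over genes and libraries at 12 h, segments 1 to 4 stood at 24.1, 22.2, 22.5 and 24.4%. In Wwox they were 21.2% (184 calls), 24.0% (221), 26.3% (186) and 25.8% (151). In Fhit they were 29.9% (97 calls), 18.6% (86), 21.2% (80) and 24.6% (61). In Macrod2 they were 21.3% (122 calls), 18.8% (69), 18.5% (81) and 25.4% (63). In Immp2l they were 28.2% (71 calls), 24.3% (70), 13.3% (30) and 17.8% (45), the lowest of all segments resting on 4 undeaminated calls with an interval of 5.31 to 29.7%. Single libraries scattered widely around these sums, with library 12 h C at 0% in segment 2 of Macrod2 and at 55.6% in segment 1 of Immp2l.

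Of the segments of all genes, 220 had at least 5 calls in every library, among them 7 of the members (segments 1, 2 and 3 of Wwox and of Macrod2, and segment 1 of Fhit). Their deviations from 0 h to 12 h ran from -3.93 points in segment 3 of Macrod2 (interval -16.3 to 8.43) to 4.81 points in segment 1 of Fhit (-7.23 to 16.8). By limma 0 of 7 passed and 0 of 7 had an unadjusted p under 0.05, where limma called 5.45% of all 220 segments. The quasi-binomial test called 0 of the 220 segments, so its 0 of 7 says nothing about the members. At an unadjusted p under 0.05, limma gave 24 of the 220.

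**Figure D4:**
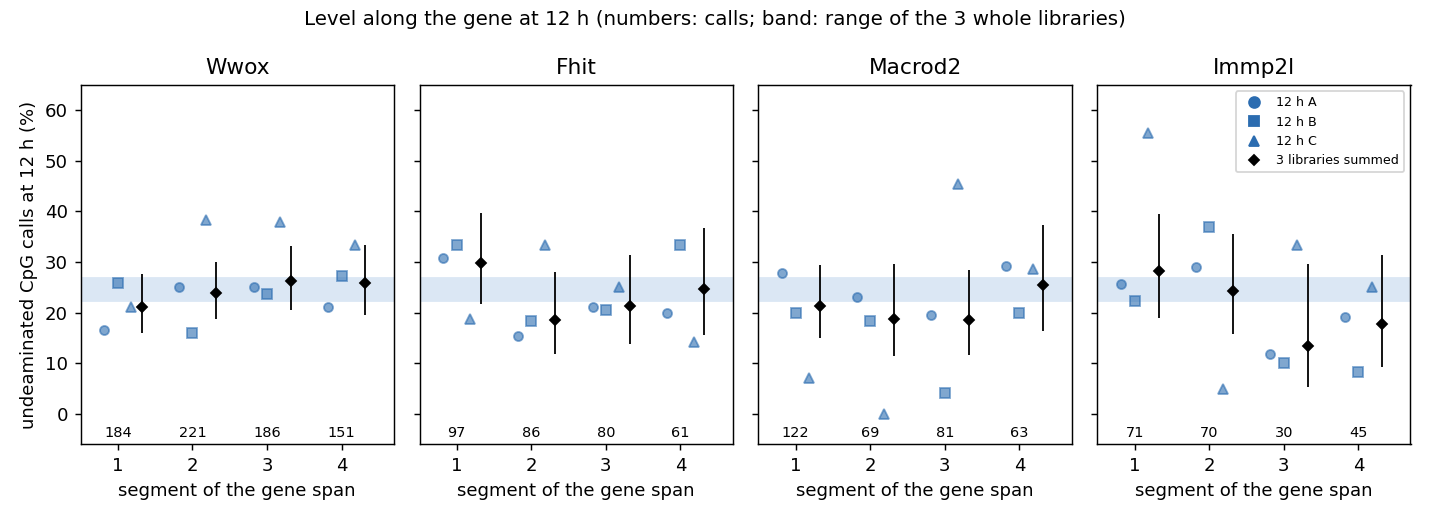
Undeaminated CpG calls at 12 h in percent (y axis) in the 4 segments of each gene span (x axis). Segments run from the transcription start, and in Wwox from the lower coordinate. Points are the 3 libraries, and diamonds are their sum with the 95% Wilson interval. The number of calls is given below, and a band marks the range of the whole libraries (22.3 to 26.8%). Each diamond's interval overlaps the band.

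The ends of the genes gave few calls. Within 1 kb of the Immp2l start, 0 of 9 calls were undeaminated at 6 h and 0 of 6 at 12 h. At the Macrod2 start it was 0 of 19 at 0 h (allowing up to 15.8%) and 1 of 6 at 12 h. At the lower end of Wwox it was 0 of 18 at 12 h, on 2 reads, which allows up to 16.7%. The upper end of Wwox had 1 of 2 at 12 h. The Fhit start was read once, at 12 h, and that 1 call was undeaminated. Outside the genes, the 250 kb on either side of the 4 spans stood at 1 of 212 calls (0.472%) at 0 h, 8 of 236 (3.39%) at 6 h and 162 of 670 (24.2%, interval 21.1 to 27.6%) at 12 h. The pooled genes at 12 h, summed over libraries, stood at 23.3% with an interval of 21.3 to 25.4%, which overlaps that of their flanks.

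Among reads whose strand could be inferred from the order of their calls, the top strand of the 4 genes had 141 of 618 calls undeaminated at 12 h (22.8%) and the bottom strand 136 of 573 (23.7%). Their intervals overlapped (19.7 to 26.3% and 20.4 to 27.4%). Fhit, which is transcribed in the minus direction, had 29.2% on that strand (33 of 113) and 23.0% on the other (20 of 87). The other strand had 0 calls in library 12 h C, and the intervals overlapped (21.6 to 38.2% and 15.4 to 32.9%). Macrod2, transcribed in the plus direction, had 20.2% on the top strand (22 of 109) and 17.0% on the bottom (19 of 112). Immp2l, also in the plus direction, had 19.3% on the top strand (17 of 88) and 23.5% on the bottom (12 of 51).

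The libraries were sequenced in 3 runs, and the run of each read was taken from its name. From 0 h to 12 h the pooled level rose by 23.5 points in run 1, 21.8 in run 2 and 10.5 in run 3. Run 3 held only 22 calls of the 4 genes at 0 h, of which 2 were undeaminated, and 143 at 12 h, where it stood at 19.6% (interval 13.9 to 26.8%).

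Inside the 4 spans, or overlapping them, lie 20 other genes with 127 shared calls. Only 2 of these are protein-coding, both for leucine-rich repeat membrane proteins. Flrt3, within Macrod2, had 3 of 9 calls undeaminated at 12 h, and Lrrn3, within Immp2l, had 4 of 21. Fhitos, the long noncoding RNA antisense to Fhit, had 2 of 13. The noncoding Gm30554 and Gm16118, both within Wwox, had 0 of 14 and 0 of 11, which allow up to 21.4 and 27.3%. At 12 h Gm4274, a pseudogene within Immp2l, had 4 of 5. Calls on 1 read are not independent, and differences from the surrounding gene were not tested at these counts.

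Other genes known from common fragile sites were taken from a list of 18 symbols. Of these, 17 were matched in the gene table and 11 had enough calls to be tested. All 11 rose from 0 h to 12 h and 2 did from 0 h to 6 h, against 98.8 and 6.36% of all tested genes. By limma none of the 11 deviated from its library in either direction, where 2.02% of all tested genes did. Their median gain was 22.2 points and their median deviation -0.25, against 23.3 and 0.788 over all 346 genes. Among those with the most calls were Auts2, a regulator of neuronal development (905 calls), the nuclear receptor gene Rora (779) and Dab1, an adaptor of reelin signalling (684). At 12 h Dab1 stood at 27.1% ± 4.43 (SD, n = 3), Auts2 at 23.2% ± 3.57 and Rora at 21.2% ± 4.26. Deviations of the 11 ran from -6.57 to 7.11 points, and 6 of them lay below 0. The lowest, -6.57 ± 2.43 points, was in the synaptic scaffold gene Dlg2 (limma, adjusted p = 0.226), which is named here after its value was seen.

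Other long genes gave similar values. Of 231 genes with spans of at least 500 kb other than the members, 107 were tested. By limma 107 rose from 0 h to 12 h and 0 deviated, against 98.8 and 2.02% of all tested genes. Their median gain was 21.8 points and their median deviation was -0.556. Relative to the levels of their read classes, 66 of the 107 lay below 0, with a median of -1.15 points, against 156 of all 346 genes with a median of 0.62. The members' values were -1.89, -1.72 and -2.88.

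Relatives and partners of the encoded proteins were mostly too short for a test. Of 11 such genes only Macrod1, the paralogue of Macrod2, had enough calls: it gained 24.1 ± 3.46 points (limma, adjusted p = 5.44e-05), with a deviation of 1.61 ± 3.31. Others with at least 20 calls were Immp1l, the partner of Immp2l in the peptidase, with 2 of 17 calls undeaminated at 12 h, Aptx (2 of 18), Nudt2, another diadenosine polyphosphate hydrolase (4 of 16), and the ADP-ribosyltransferase genes Parp10 (8 of 28) and Parp14 (9 of 19). Hint1 and Hint2, of the same family as Fhit, had 1 and 2 calls at 12 h. The values of these short genes rest on few reads.

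The genes whose levels over the 8 libraries were most like those of each member were found by the root mean square difference. For Wwox these were Nfasc (1.63 points) and Enox1 (2.08), where the median over tested genes was 6.30. For Fhit they were Cdh13 (2.13) and Nrg1 (2.24), for Macrod2 Col23a1 (1.82) and Ntm (2.83), and for Immp2l Auts2 (2.21) and Kirrel3 (2.23). Auts2 is also one of the other fragile-site genes.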

How the data were processed

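Per the file headers, the authors deposited call tables from Bismark's extractor (0.22.3). Each line gives 1 call letter, undeaminated or deaminated, for a CpG of a read. Trim Galore, Bismark and GRCm38 are named in the submitters' processing notes. Whether duplicates were removed is not given in the sources used here. Per the labels' protocols, 10 ng of DNA at about 300 bp entered each library, sequenced with 150 bp chemistry in 3 runs.

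Calls were assigned to gene spans of a RefSeq table (GRCm38.p6) by symbol. Levels carry 95% Wilson intervals, which cover counting error only, since calls on 1 read are not independent, and a level that a count of 0 allows is the one that 3 undeaminated calls would give, left out for small counts. Genes (and their segments) with 10 (and 5) or more calls in each library were fitted with limma 3.58.1 in R 4.3.3, with 1 factor of 3 times over 8 libraries, weights of calls over binomial variance and Benjamini-Hochberg adjustment over all genes or segments. The fit was tested on simulated data. Expected levels weight 7 classes of CpGs per read. Segments are of equal length. Named were the members, genes overlapping them, the 4 other fragile-site genes with most calls (1 is not reported here), relatives with at least 20 calls, and the 2 tested genes nearest to each member. Members, lists and alternatives were chosen with earlier results of these data known.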

Additional observations from a re-analysis of the deposited data

How the results depend on the processing

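With other minimums of calls, no weights, a logit scale, 1 call per read, identical reads once, no high-copy windows, a quasi-binomial test, the replicate block and each library left out, the members tested kept a gain past the threshold. No member's deviation, standardised deviation or segment passed under these or with median centring, nor did a segment of equal calls. The sign of the deviation was not stable. It turned positive in Wwox without weights (0.869) and with 1 call per read (0.971), in Macrod2 with 1 call per read (1.06) and on the log-odds scale of the quasi-binomial test (1.00), and with a library left out it ran from -1.49 to 0.333 in Wwox, -1.95 to 0.509 in Fhit and -4.72 to 1.83 in Macrod2. It moved down to -5.07 in Fhit with 1 call per read, and to -2.66 in Wwox, -2.47 in Fhit and -3.50 in Macrod2 with median centring. The standardised deviation turned positive with 1 call per read in Wwox (0.599) and Macrod2 (0.907), with the quasi-binomial test in Macrod2 (0.951), and ran from -6.18 to 0.165 in Macrod2 with a library left out. The pooled standardised difference moved from -1.44 to 0.134 points with 1 call per read. Causes were not tested. The pooled 12 h level stayed within its SD, at 22.4 to 25.3% with a library left out, 23.5% as a mean of the 4 gene levels and 24.8% without overlapping genes. Whether the replicate letters pair the libraries is not known. Same-letter correlations ran from -0.165 to 0.0094, and those of different letters from -0.0492 to 0.142. They cannot decide this, since counting error in genes with few calls could hide a pairing. They are also not free of each other: library 0 h A gave mirror values of -0.018 with 6 h A and 0.018 with 6 h B. With a replicate block the gains were 22.2 points in Wwox, 21.8 in Fhit and 21.8 in Macrod2, and the count of 3 members did not move.

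Over all genes, the 7 deviations called became 0 with a logit scale or 1 call per read, 2 without high-copy windows or with the quasi-binomial test, 4 without weights, 1 without library 12 h B, and 11 with a minimum of 5 calls or without library 6 h A. The 3 standardised calls became 0 with a logit scale, 1 call per read, the quasi-binomial test or without 12 h A or 12 h B, 1 without 12 h C, 2 without weights, high-copy windows or 0 h C, or with median centring, 5 without 0 h B and 6 with a minimum of 5 calls. The 12 segments called became 0 with a logit scale, 1 call per read, the quasi-binomial test or without high-copy windows, 7 without weights and 20 with a minimum of 3 calls. Gains called fell from 342 of 346 to 196 on the logit scale; they were 966 of 1027 genes with a minimum of 5 calls, 86 of 87 with 20, 80 of 80 with 1 call per read and 532 of 546 without library 6 h A. Depth limits the single genes: no member had more than 103 calls in a library at 0 h.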
